A study of Homo sapiens with 2 samples.

Results

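Within the SRSF1 crosslink sites of H1299 cells, 206 tag clusters held exactly 2 truncation sites. They were picked from the deposited list by grouping its truncation rows by chromosome, strand and the cluster number in each row's name, and keeping the clusters with 2 rows. They are 4.71% (95% interval 4.10 to 5.38%) of the 4370 clusters with any truncation site, and their 412 sites are 8.71% of the 4731 truncation sites in the list. Of the rest, 4112 had a single site, 31 had 3 and 21 had 4 or more. The list comes from 2 samples of 1 group: replicates 1 and 2 of SRSF1 HITS-CLIP in H1299, an established human lung carcinoma line, with no treatment, genotype or control library given in the labels. The replicates are combined in 1 list with no column for either, so no value below has a replicate spread and no test between samples was possible. Intervals are exact Clopper-Pearson intervals at the 95% level. They cover counting error only, since tags may include PCR copies of 1 molecule, and clusters of 1 list are not replicates of a condition.

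SRSF1 is an SR-family splicing factor. Its RNA recognition motifs bind short purine-rich stretches of RNA, often in exons, and its arginine- and serine-rich tail contacts other splicing proteins. In HITS-CLIP, live cells are irradiated with ultraviolet light, which ties proteins to the RNA they contact, and the RNA fragments attached to 1 protein, called tags, are recovered with an antibody and sequenced. A peptide left on the RNA can halt the reverse transcriptase next to the crosslink, so that many tags begin at 1 position (a truncation site), or can make it misread or skip a base (a mutation site). A cluster of overlapping tags with 2 truncation sites is thus a short stretch of RNA with a pair of distinct stops. For every truncation site the list gives the number of truncated tags (PH), an expected number of tags for any 1 position in that cluster (PH0) and the authors' P. The meaning of PH and PH0 follows the naming of the toolkit the list is named after and is not stated in the labels. The number of sites per cluster chose the members, and PH, PH0, P and spacing come from the same calls, so these are described without tests. The annotation at hand is of another genome build than the list (hg19), so clusters are given by hg19 position and strand, without gene or exon.

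The 206 clusters were spread over all 25 chromosome sequences of the list, 107 on the plus strand and 99 on the minus strand. Chromosome 2 held 20 of them, chromosome 11 held 18 and chromosome 8 held 15. On chromosome 11, 10 of the 18 came from 1 stretch of 5097 nt. As a share of the clusters with any truncation site, chromosome 11 stood at 7.59% (18 of 237, interval 4.56 to 11.7%), chromosome 8 at 6.73% (15 of 223, 3.81 to 10.9%) and chromosome 17 at 1.90% (5 of 263, 0.620 to 4.38%). Of the 25 intervals, that of chromosome 17 alone left out the 4.71% over all chromosomes, and the difference was not tested. Most members were isolated from one another. Only 12 groups, with 39 members, had neighbours on the same strand within 5000 nt.

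The pair of sites lay close together. The median distance between the midpoints of the sites was 47.5 nt (quartiles 33 and 72.75, range 26 to 237). A spacing of 26 to 30 nt was found in 31 clusters (15.0%, 10.5 to 20.7%), 31 to 40 nt in 49 (23.8%, 18.1 to 30.2%), 41 to 60 nt in 58 (28.2%, 22.1 to 34.8%), 61 to 90 nt in 44 (21.4%, 16.0 to 27.6%) and more in 24 (11.7%, 7.61 to 16.8%). Spacings over 100 nt were seen in 16 clusters. The most frequent single distance was 33 nt, in 13 clusters, followed by 29 nt in 9. The list holds no pair of truncation sites of 1 cluster closer than 26 nt, and the settings of the calling are not given, so its part in this limit was not tested. Among the 52 clusters with 3 or more sites, the 155 gaps between neighbours were wider, with a median of 61 nt (quartiles 44 and 97, range 26 to 759).

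**Figure D1:**
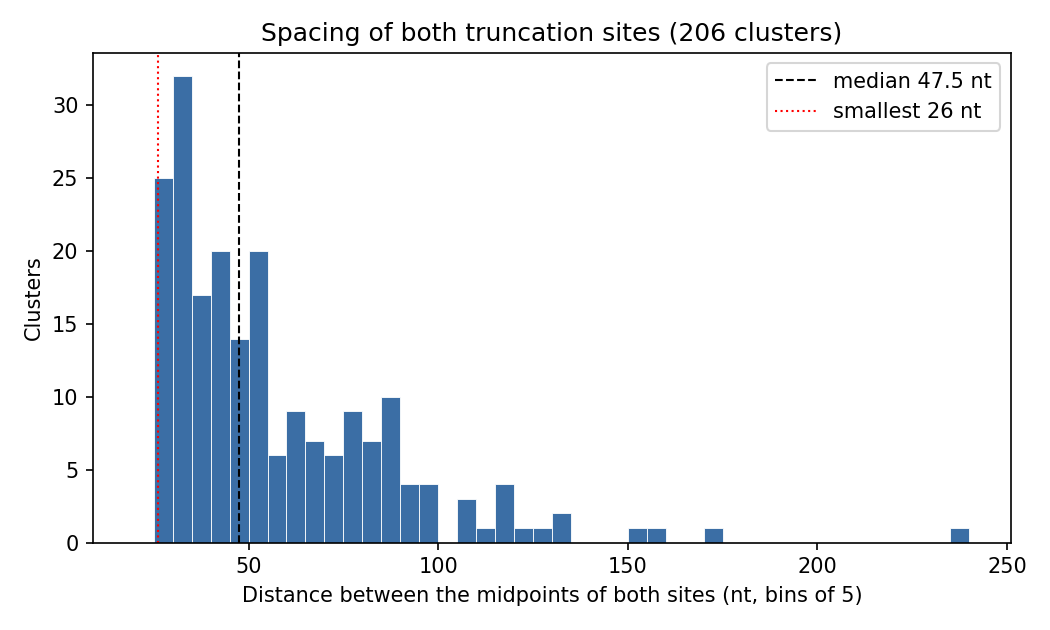
Histogram of the distance in nt between the midpoints of both truncation sites (horizontal axis, bins of 5 nt) against the number of clusters (vertical axis) for the 206 clusters. The counts stand highest between the smallest distance of 26 nt and the median of 47.5 nt and thin out to a single cluster at 237 nt.

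Of the 7 clusters at 26 nt, those named here were picked for their summed tags, 15 to 24, and the lowest of the 7 had 11. The widest pairs had 14 to 26 in sum. Over all members, the median sum was 15 at 26 to 30 nt, 16 at 31 to 40 nt and 18 at 41 to 60 nt. It was 16 at 61 to 90 nt and 20.5 at 91 to 237 nt. At 26 nt, a spacing of 7 clusters, the cluster with the most truncated tags was found on the plus strand of chromosome 4, where the 5′ site (1741431 to 1741451) had 16 tags and the 3′ site (1741457 to 1741477) had 8. The next, on chromosome 2 minus strand, had 12 tags at 91828253 to 91828273 and 10 at 91828227 to 91828247. On chromosome 6 minus strand, the sites at 72101656 to 72101676 and 72101630 to 72101650 had 7 and 8 tags. The intervals of such pairs, each 21 nt long, are separated by a few bases only. The widest pair, 237 nt apart, was on chromosome 20 plus strand, where 57465156 to 57465176 had 15 tags and 57465393 to 57465413 had 7. It was followed by a pair 173 nt apart on chromosome 5 plus strand (71491116 to 71491136 and 71491289 to 71491309), with 13 tags at each site. The third was 157 nt apart on chromosome 16 minus strand (89349391 to 89349411 and 89349234 to 89349254), with 7 tags at each. Across the 206 clusters, the distance and the summed tags went together weakly (Spearman's rho 0.14, Pearson's r 0.14), as a description over clusters of 1 list.

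Neither site of the pair was the stronger one as a rule. The 5′ site had more truncated tags in 86 clusters, the 3′ site in 86, and the sites were tied in 34 (16.5%, 11.7 to 22.3%). Among the 172 clusters with unequal sites the 5′ site led in 50% (42.3 to 57.7%). The 5′ sites carried 2069 truncated tags in all and the 3′ sites 2029, so that the 5′ share was 50.5%. The median was 8 tags at the 5′ site (quartiles 7 and 12, range 4 to 40) and 8 tags at the 3′ site (quartiles 7 and 11.75, range 4 to 29). The interval leaves room for a lean of either site of several percentage points, which 172 clusters cannot show. In clusters with 3 or more sites, the 5′ neighbour led in 67 gaps, the 3′ neighbour in 66, and 22 were tied.

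This even split ran through the range of spacings. The 5′ and the 3′ site led in 14 and 13 clusters at 26 to 30 nt, and in 19 and 22 at 31 to 40 nt. At 41 to 60 nt they led in 27 and 22, at 61 to 90 nt in 17 and 21, and in 9 and 8 of the clusters spaced wider. Clusters with the fewest and the most expected tags differed somewhat in these counts. With PH0 of 0.23 or less (53 clusters) the 5′ site led in 19, the 3′ site in 17, and 17 were tied. With PH0 of 0.53 or more (52 clusters) the counts were 28, 20 and 4. Sites with few tags tie more easily, and the difference between these classes was not tested.

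Most pairs were also close to equal in size. The sites differed by at most 2 truncated tags in 118 clusters (57.3%, 50.2 to 64.1%), by 5 or more in 51 (24.8%, 19.0 to 31.2%) and by 10 or more in 8 (3.88%, 1.69 to 7.51%). Of those 8, the 5′ site was the higher one in 6. The larger site held a median of 56.3% of the pair's tags (quartiles 53.3 and 60.7, highest 78.4), a value that cannot fall under 50%. It had a median of 1.29 times the tags of the smaller site. In 21 clusters (10.2%, 6.42 to 15.2%) it had at least 2 times as many, and in 1 at least 3 times. The list holds no truncation site with under 4 truncated tags and none with a P over 0.001. Only 2 of the 412 paired sites had 4 tags, and both sites of a pair share 1 PH0. Sites near the limit on the authors' P held more tags at higher PH0. Examples are 4 tags at PH0 of 0.08 (P of 5.18e-04), 6 at 0.33 (6.32e-04) and 8 at 0.73 (7.95e-04). The low count of sites with 4 tags therefore does not mean that the limits left the pairs untouched. The part of these limits in the balance was not tested.

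**Figure D2:**
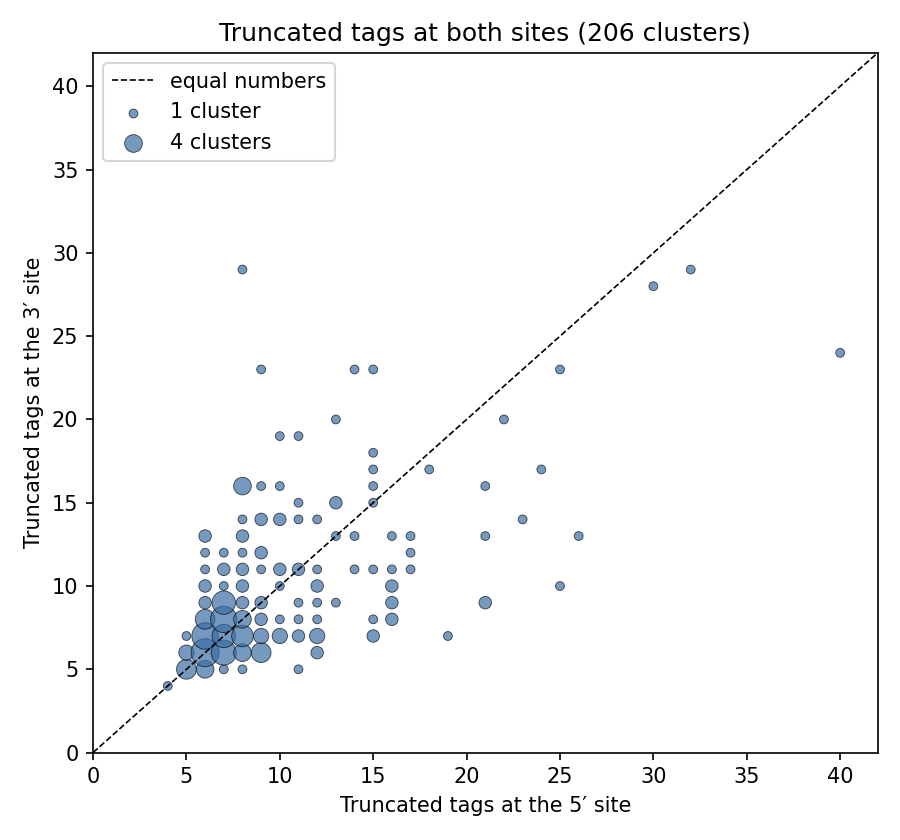
Truncated tags at the 5′ site (horizontal axis) and at the 3′ site (vertical axis) of each of the 206 clusters; the area of a point grows with the number of clusters at the same pair of values, and the dashed line marks equal numbers. The clusters lie evenly on both sides of the line, 86 below it, 86 above it and 34 on it, and only 1 has 3 times as many tags at one site as at the other.

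A counting interval for the 5′ share of truncated tags excluded an even split in 6 of the 206 clusters (2.91%, 1.08 to 6.23%). The same was true of 8 (2.22%) of all 361 neighbouring pairs in clusters with 2 or more sites. That background includes the 206 members and their 6 calls, so the members' share lies near it partly by construction. Few tags also limit these calls. The median pair had 17 tags, and 8 against 16 tags on chromosome 4 minus strand still gave an interval of 15.6 to 55.3%. A low share of calls therefore does not show that the pairs are even. Of the 6 called clusters, on chromosomes 2 (a pair of clusters), 13, 17, 19 and 22, the 5′ site was higher in 4. The most uneven pair lay on chromosome 2 minus strand, with 8 tags at its 5′ site (55277411 to 55277431) and 29 at its 3′ site (55277344 to 55277364), a 5′ share of 21.6% (9.83 to 38.2%) with PH0 of 0.47. On chromosome 17 minus strand, the 5′ site (76799840 to 76799860) had 9 tags and the 3′ site (76799768 to 76799788) had 23. The third lowest 5′ share, 31.6% (12.6 to 56.6%), whose interval holds an even split, was on chromosome 14 plus strand, where 6 tags at 73576070 to 73576090 stood beside 13 at 73576103 to 73576123. Other pairs leaned to the 5′ side. The highest 5′ share was 73.1% (52.2 to 88.4%) on chromosome 22 minus strand, with 19 tags at 36685250 to 36685270 and 7 at 36685181 to 36685201. It was followed by chromosome 2 minus strand, with 25 tags at 133012012 to 133012032 and 10 at 133011935 to 133011955, and by chromosome 13 minus strand, with 21 at 107211927 to 107211947 and 9 at 107211884 to 107211904. On chromosome 19 plus strand, 21 tags at 36066535 to 36066555 and 9 at 36066604 to 36066624 gave the same share as on chromosome 13. None of these 7 clusters had a mutation site between its sites or within 50 nt beside them, as was the case for 183 of all 206.

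The tag numbers of the 2 sites of a cluster went together (Spearman's rho 0.56, Pearson's r 0.58 over 206 clusters). Both sites share 1 cluster, 1 PH0, 1 smallest listed number of tags and 1 highest listed P. PH0 itself followed the summed tags (rho 0.84). Among the 104 clusters with PH0 at or under the median, rho was 0.22 and r was 0.10, and among the 102 others rho was 0.34 and r was 0.45. Splitting by PH0 also narrows the range of both tag numbers, so these values do not say what the likeness rests on. Without the 53 members that lie in loci of 5 or more sites, rho was 0.53.

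Expected tags placed these clusters between those with 1 site and those with more. PH0 was the same at both sites of every one of the 206 clusters, as it is a value of the cluster. Its median was 0.33 tags per position (quartiles 0.23 and 0.525, range 0.08 to 4.95), against 0.175 (0.11 and 0.27) in clusters with 1 site, 0.54 (0.40 and 0.87) in those with exactly 3 and 0.59 (0.383 and 1.23) in those with 3 or more. The truncated tags per site followed the same order, with medians of 6 at lone sites, 8 in the pairs and 11 in clusters of exactly 3. The ratio of observed to expected tags went the other way. It had a median of 36.6 at lone sites, 26 in the pairs (quartiles 18.7 and 32.4, range 5.86 to 68.8) and 18.8 in clusters with 3 or more. Sites at the smallest listed number of 4 tags made up 702 of the 4112 lone sites (17.1%, 15.9 to 18.3%), 2 of the 412 paired sites (0.485%, 0.0588 to 1.74%) and none of the 207 sites in larger clusters. The clusters were sorted by their number of listed sites, and PH and PH0 come from the same calls, so this order is a description; the part of the calling in it was not tested.

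**Figure D3:**
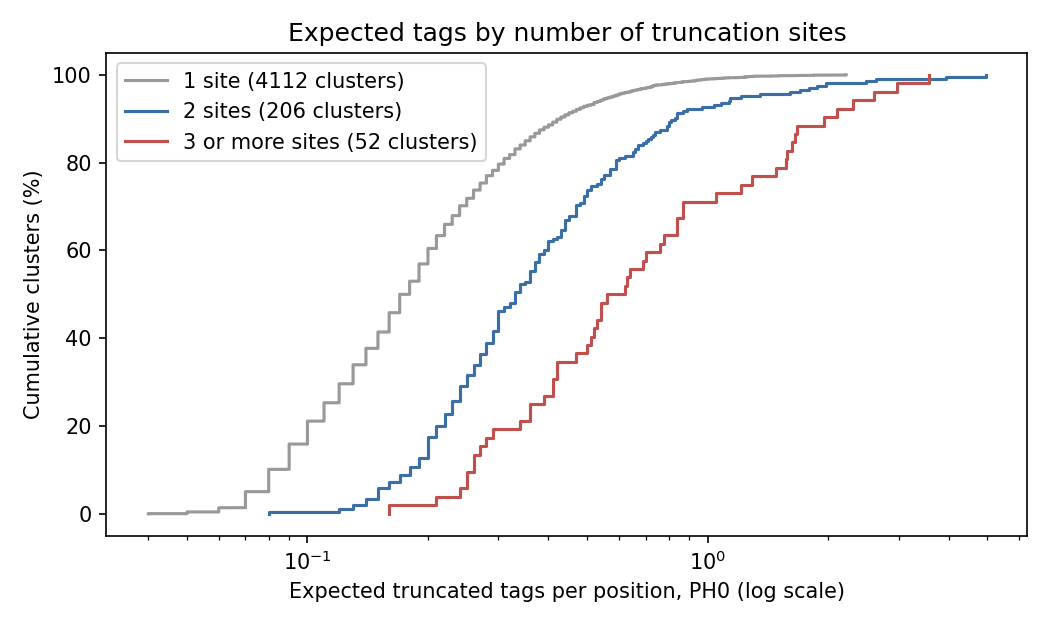
Cumulative percentage of clusters (vertical axis) by expected truncated tags per position, PH0 (horizontal axis, log scale), for clusters with 1 site, 2 sites and 3 or more sites. The curve of the 2-site clusters, with a median of 0.33, lies to the right of that of the 1-site clusters (0.175) and, except at the highest values (4.95 against 3.58), to the left of that of the larger clusters (0.59).

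The share of clusters that held exactly 2 sites climbed with PH0. With PH0 under 0.1 it was 1 of 654 clusters (0.153%, 0.00387 to 0.849%), and from 0.1 to under 0.2 it was 25 of 1714 (1.46%, 0.946 to 2.15%). From 0.2 to under 0.5 it was 123 of 1618 (7.60%, 6.36 to 9%), and from 0.5 to under 1 it was 42 of 315 (13.3%, 9.78 to 17.6%). At 1 or more it was 15 of 69 (21.7%, 12.7 to 33.3%), and another 15 of those 69 held 3 or more sites. Even so, 39 clusters with a PH0 of 1 or more had a single site. Among the 206 pairs themselves, 15 (7.28%, 4.13 to 11.7%) had a PH0 of 1 or more.

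The deepest members were few. The most truncated tags, 64 in sum, were on chromosome 2 minus strand, with 40 at 230045590 to 230045610 and 24 at 230045511 to 230045531, 79 nt apart, against 2.64 expected. On chromosome 5 plus strand, 32 tags at 71146747 to 71146767 and 29 at 71146872 to 71146892 stood against 4.95 expected, the highest PH0 of all members. On chromosome X plus strand, 30 tags at 108297650 to 108297670 and 28 at 108297764 to 108297784 stood against 3.93. These 3 clusters also had the 3 highest PH0. Chromosome 12 plus strand had 25 tags at 20704370 to 20704390 and 23 at 20704413 to 20704433 against 2.49, and chromosome 11 plus strand had 22 at 65268857 to 65268877 and 20 at 65268904 to 65268924 against 1.70. In 4 of these 5 deepest pairs the sites differed by 2 or 3 tags. At the other end, chromosome 5 plus strand held a pair with 4 tags at each site (98308941 to 98308961 and 98308979 to 98308999) against 0.08 expected, the only member with a site at 4 tags. On chromosome 20 plus strand (34091174 to 34091194 and 34091221 to 34091241) 6 and 5 tags stood against 0.12, and on chromosome 11 plus strand (62432881 to 62432901 and 62432979 to 62432999) 6 and 5 against 0.13. PH0 is listed to 2 decimals, so ratios at such low values are coarse.

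The authors' P reached the lowest listed value, 1e-100, at 1 site of 17 clusters and at both sites of none. It was the 5′ site in 10 of them and the 3′ site in 7. This value does not mark the strongest sites. A site with 16 tags at PH0 of 0.54 on chromosome 4 minus strand had it. On chromosome 17 minus strand, 23 tags at PH0 of 0.62 had an authors' P of 1.78e-14. The larger P of each pair had a median of 3.73e-05 and the smaller one 8.21e-09. In 132 clusters (64.1%, 57.1 to 70.6%) both sites had a P of 1e-04 or less. In the widest symmetric pairs, with 13 and 13 or 7 and 7 tags, both sites carried the same P (5.86e-13 and 3.97e-07), as they share PH and PH0.

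Mutation sites lay between the pair in few clusters. Counting mutation sites on the same strand whose midpoint fell from one truncation site to the other, 9 of the 206 clusters had at least 1 (4.37%, 2.02 to 8.13%), with 12 mutation sites in all. The share was 1.96% without members in loci of 5 or more sites, a count that includes mutation sites. With only truncation sites of a P of 1e-04 or less, clusters were picked anew, and the share was 7.09% of 141. These 141 include clusters outside the 206, of which 132 have both sites at such a P. Beside the pair, within 50 nt, 15 clusters had a mutation site (7.28%, 4.13 to 11.7%), and within 100 nt 11.7% had one. The 5′ flank had 5 mutation sites in 5 clusters, and the 3′ flank had 13 in 10 clusters. No cluster had them on both outer sides, and 1 had them between and beside. In all, 23 clusters (11.2%, 7.21 to 16.3%) had any of these 30 mutation sites, and 183 had none. A mutation site is listed with the tags covering it and the tags mutated there, and the kind of mutation is not given.

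Per length, the pairs held 1.01 mutation sites per 1000 nt between the truncation sites, 0.485 in the 50 nt on the 5′ side and 1.26 in the 50 nt on the 3′ side. The clusters on chromosome 5 (71146747 to 71146892) and chromosome X (108297650 to 108297784) supplied 9 of the 30 mutation sites. Without both, 8 sites lay between, 8 in the 3′ flank and 5 in the 5′ flank. Over the spans with 50 nt on each side, the density was 0.923 per 1000 nt, and 0.655 without those 2 clusters. In the 50 nt on either side of lone truncation sites it was 0.600. Counting clusters instead, 5.79% of the 1-site clusters (238 of 4112, 5.09 to 6.55%) and 44.2% of the clusters with 3 or more sites (23 of 52, 30.5 to 58.7%) had a mutation site within 50 nt of a truncation site, with 11.2% of the pairs between them. A pair offers a longer stretch than a lone site, and no test of this order was made. The classes were also set side by side at like tag numbers. Where the highest site had 8 to 11 tags, it was 6.66% of the 1-site clusters (57 of 856), 6.49% of the pairs (5 of 77, 2.14 to 14.5%) and 18.2% of the larger clusters (2 of 11, 2.28 to 51.8%). At 12 or more it was 9.56% (37 of 387, 6.82 to 12.9%), 13.8% (11 of 80, 7.07 to 23.3%) and 55.3% (21 of 38, 38.3 to 71.4%), the same order as over all clusters. At 4 to 7 it was 5.02% (144 of 2869, 4.25 to 5.88%) and 14.3% (7 of 49, 5.94 to 27.2%), with 0 of 3 larger clusters. The intervals of lone sites and pairs overlapped at 8 to 11 and at 12 or more tags and lay apart at 4 to 7, a difference that was not tested.

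Mutation sites between the truncation sites and on the 3′ side were deep, and those on the 5′ side shallow. The 12 between were covered by a median of 76 tags (range 5 to 424) and the 13 on the 3′ side by 118 (9 to 503), while the 5 on the 5′ side were covered by a median of 7 (3 to 11). Over all 2023 mutation sites of the list the median was 5. Without the clusters on chromosomes 5 and X, the medians were 37 between and 32.5 on the 3′ side. Tags that begin at a truncation site run 3′ from it, so counted tags can be among those covering the stretch between the sites and 3′ of the second. The counted tags of both sites were 61 in sum beside a mutation site covered by 424 on chromosome 5. They were 24 beside one covered by 5 on chromosome 4 minus strand. The part of the counted tags in this depth was not tested. The mutated share ran the other way, with a median of 12.7% between, 12.8% in the 3′ flank and 36.4% in the 5′ flank. In the list, the smallest number of mutated tags is 2, so a shallow site cannot have a low share.

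The clusters with mutation sites were of several shapes. On chromosome 5 plus strand (71146747 to 71146892) 4 mutation sites lay 28, 32, 74 and 125 nt from the 5′ site, the last at the very midpoint of the 3′ site. They were covered by 424, 402, 117 and 236 tags, of which 5, 6, 11 and 19 were mutated. A further 2 lay 27 and 30 nt 3′ of the pair, the second with 60 of 372 tags mutated (16.1%). On chromosome X plus strand 3 mutation sites lay 3, 6 and 20 nt 3′ of the pair and none between, with 32 of 456, 30 of 494 and 30 of 503 tags mutated (7.02, 6.07 and 5.96%). On chromosome 12 minus strand, the pair at 127650961 to 127650981 (15 tags) and 127650913 to 127650933 (23 tags) had 1 mutation site 5 nt 5′ of its 3′ site, with 73 of 97 tags mutated (75.3%), the highest share among the 30. On chromosome 19 plus strand, the pair at 4422648 to 4422668 (15 tags) and 4422678 to 4422698 (18 tags) had 1 mutation site 1 nt 5′ of its 3′ site, with 4 of 49 tags mutated (8.16%). Chromosome 2 minus strand had 1 with 35 of 92 tags mutated (38.0%) 12 nt 3′ of a 5′ site. Whether the mutations at any of these sites arose at a crosslink was not tested. How multiply placed reads were treated is not given either.

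Of the 12 mutation sites between, 8 lay nearer the 3′ truncation site and 4 nearer the 5′ one. The 4 nearer the 5′ site came from 3 clusters, on chromosomes 2, 5 and 11. Of all 30, 6 were within 4 nt of a truncation site and 9 within 10 nt.

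**Figure D4:**
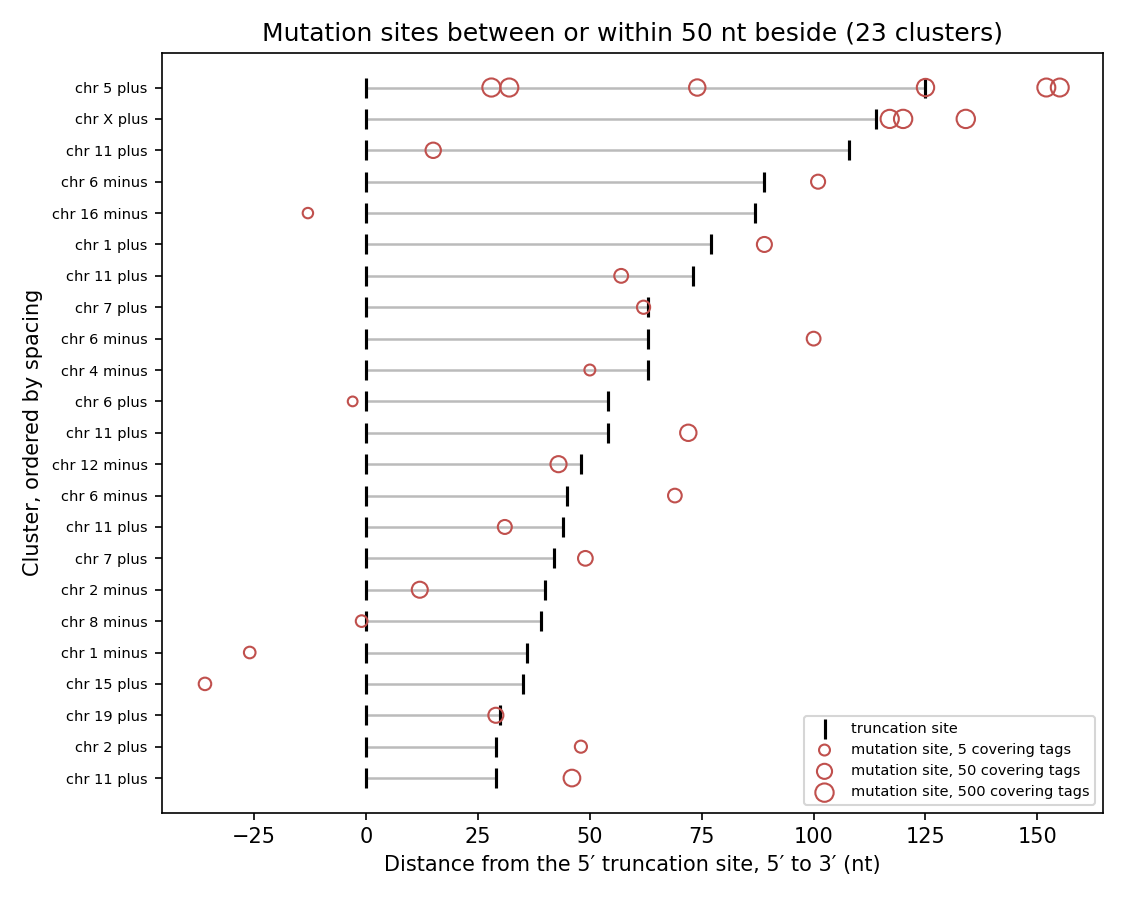
Each line is 1 of the 23 clusters with a mutation site between its truncation sites or within 50 nt beside them, ordered by spacing; the horizontal axis is the distance in nt from the 5′ truncation site, ticks are truncation sites, and circles are mutation sites whose size grows with the logarithm of the covering tags. The 5 circles on the 5′ side are small (3 to 11 covering tags), and the largest (236 to 503) stand in the chromosome 5 and chromosome X clusters.

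Surroundings varied. The nearest truncation site of another cluster was within 100 nt of 21 members (10.2%, 6.42 to 15.2%) and within 1000 nt of 80 (38.8%, 32.1 to 45.9%). When all sites of the list with gaps of up to 1000 nt were joined into loci, 106 members (51.5%, 44.4 to 58.5%) had no other site in their locus, and 53 (25.7%, 19.9 to 32.3%) lay in loci of 5 or more sites. The lone members and those in such loci had median spacings of 45.5 and 50 nt and median summed tags of 17 and 18. Their median PH0 was 0.30 and 0.38, and these differences were not tested. The 5′ site led in 45 of the lone members and the 3′ site in 47, with 14 tied. In the dense loci the counts were 19, 21 and 13.

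The largest gathering was on chromosome 11 plus strand, where 10 members lay within 5097 nt (65268370 to 65273466). Each of the 10 lay in a locus of 85 listed sites. They had 13 to 42 truncated tags each, 256 in sum, with PH0 from 0.31 to 1.88 and spacings from 29 to 116 nt (median 83.5). Their 5′ and 3′ sites had, from the lowest position up, 15 and 16 tags, 6 and 7, 22 and 20, 7 and 9, and 11 and 11. In the other 5 clusters they had 9 and 14, 24 and 17, 9 and 12, 11 and 14, and 11 and 11. The 3′ site led in 6 of the 10, the 5′ site in 2, and 2 were tied, a lean to the 3′ side in 10 clusters that was not tested. Mutation sites lay between the sites of 2 of these clusters and beside 2 others.

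Smaller gatherings showed other balances. On chromosome 16 minus strand, 4 members lay within 1053 nt (89348545 to 89349597) with 14 to 18 tags each and PH0 from 0.14 to 0.37. Their sites had 6 and 10, 10 and 8, 7 and 7, and 7 and 7 tags, and the spacings ran from 27 to 157 nt. On chromosome 2 minus strand, the 5′ site led in all 3 members between 133011935 and 133015268, with 22 to 35 tags each. In the 3 members between 232321181 and 232325536 on the same strand the 3′ site led in 2 and 1 was tied. On chromosome 8 plus strand, 3 members between 58118359 and 58122703 had wide spacings of 79, 86 and 134 nt, and the 3′ site led in 2, with 1 tied. The mitochondrial sequence held 2 members, 1 on each strand. The plus-strand pair (2972 to 2992 and 3050 to 3070) had 17 and 13 tags against 0.74 expected, and the minus-strand pair (365 to 385 and 314 to 334) had 8 and 7 against 0.47. The single member on chromosome Y plus strand (10037753 to 10037773 and 10037803 to 10037823) had 15 tags at each site.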

How the data were processed

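HITS-CLIP of SRSF1 was done on 2 replicates of H1299 cells. Reads were handled with cutadapt (no version given) and BWA 0.7 on build hg19, per the submitters' processing notes. How PCR duplicates and multiply placed reads were treated, and when the replicates were merged, is not given in the sources used here. A single list, deposited by the authors, has 6754 sites, and its tag count equals the truncated tags of a truncation site or the mutated tags of a mutation site. Library totals are unknown here.

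Positions are 1-based, and distances run between interval midpoints (rounded down in the 14 intervals of 22 nt, which touch 1 member). Shares carry exact 95% Clopper-Pearson intervals, and no tests were made. Counting was checked on simulated data, where all 200 planted pairs were recovered among 350 clusters. Python 3.11.15, pandas 2.3.3 and SciPy 1.17.1 were used. Named clusters were the extremes of summed tags, spacing, 5′ share, PH0 and mutation sites, 22 in all; groups of members, the mitochondrial and Y members, and other clusters named with mutation sites were chosen after their values were seen. The members and these rules were chosen with earlier results of these data known. No sequence is shown because only a GRCh38 annotation, without an hg19 genome, was used.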

Additional observations from a re-analysis of the deposited data

How the results depend on the processing

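No paired analysis was possible because both replicates belong to 1 group and are merged in the deposited list; for the same reason no replicate could be left out. Of 27 alternatives, 7 were chosen after seeing the data. In all, 25 of the 27 stayed inside the interval of the reported value (for the number of clusters, within 1.5 times). Some alternatives could hardly move a value. Keeping truncation sites with 5 or more tags left 205 of the 206 clusters and all 172 unequal pairs. The median share of the larger site, 56.3%, became 59.2% in clusters with 20 or more truncated tags in sum. The clusters with a mutation site between the truncation sites, 4.37%, became 1.96% without members in loci of 5 or more sites; mutation sites count toward the size of a locus, so this alternative removes clusters with mutation sites by its construction. With truncation sites of P of 1e-04 or less, clusters were picked anew, and the same share was 7.09% of 141 clusters, not all among the 206. The share with a mutation site beside, 7.28%, was 11.7% with a window of 100 nt. The share of unequal pairs led by the 5′ site ran from 49.5% (plus strand alone) to 54.5% (sites differing by 3 or more tags), and the number of 2-site clusters fell from 206 to 141 with truncation sites of P of 1e-04 or less. Low tag numbers limit the balance of single pairs: the median pair rests on 17 tags.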
